A study of Salmo salar with 45 samples.

Results

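The genes described here are the 200 whose expression in the distal intestine of Atlantic salmon was lowest in the LP500 diet relative to every other diet of the trial. RNA of 45 fish in fresh water was sequenced, 9 fish from each of 5 diets fed for 61 days. The LP500 diet held 500 mg per kg of Feed LP20, a product of heat-killed *Lactiplantibacillus plantarum* strain L-137 (HK L-137), the MG diet held 2 g per kg of β-glucan, and the control diet CD held neither. The LP20 and LP100 diets held 20 and 100 mg per kg of the same product. All 5 diets shared one commercial-like base of fish meal and plant ingredients, and the sampled fish came from triplicate tanks per diet. By the paper's chemical analysis, the LP100 and LP500 diets held less crude lipid than the other diets. The doses and the tanks are those of the study's methods, and the labels name only the diet of a fish.

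For each of the 18876 genes with a mean of at least 5 CPM (read count relative to the library size, with a common scaling factor) over the 45 fish, among 69389 counted, log2 CPM was averaged per diet. The lowest of the 4 other diet means was then subtracted from the LP500 mean, and the 200 most negative differences were taken. A further 5 genes were set aside by the rule, but they ranked between 547 and 2396 and would not have entered. The members were chosen by these diet means of the same 45 fish, so their lower level in LP500 is a description and not a finding. LP500 had the lowest of the 5 diet means in 34% of the 18876 genes (6410 genes), so the 200 are the far end of a large group.

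The distal intestine of salmon takes up and degrades macromolecules from the lumen in enterocytes that hold large supranuclear vacuoles, above a lamina propria with immune cells, connective tissue, vessels and smooth muscle. Heat-killed lactic acid bacteria and β-glucans are given as feed additives because their cell wall components are bound by receptors of innate immunity. The members have no single pathway in common by name. They include nuclear receptors, proteins of endosome and vesicle traffic, interferon-induced genes, ion transporters and enzymes of nucleotide, carotenoid and NAD metabolism, beside many genes without a symbol.

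Between 9660750 and 22377591 fragments were counted per fish (median 14634308), which gives a gene at 5 CPM between 48.3 and 112 fragments and a counting error of 14.4% to 9.45%. Of 10 marker genes of absorptive enterocytes of the distal intestine, the summed level was 21142 to 37374 CPM in LP500 fish. It was 22056 to 36558 CPM in MG, 29753 to 39187 CPM in CD, 23858 to 37818 CPM in LP20 and 24806 to 42039 CPM in LP100 fish. These markers were thus found in every diet. The lysosomal gene *ctsbb* alone averaged 15502 CPM, so the sum is no test of the tissue label. None of the 10 was at 0 in a diet, although *lrp2a* averaged only 0.58 CPM.

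The differences ranged from -1.38 to -0.33 on the log2 scale (median -0.40), which corresponds to LP500 levels of 0.384 to 0.798 times the next lowest diet (median 0.760). In 3 genes the difference was below -1, in 33 between -1 and -0.5, and in 164 smaller in size than 0.5. The next lowest diet was LP100 for 74 members, LP20 for 52, MG for 38 and CD for 36. The members just inside the limit were ENSSSAG00000103073, *nampt2* and ENSSSAG00000110260, all at -0.33, and *badb*, LOC100196256 and LOC106610675 lay just outside it, also at -0.33. The limit therefore cuts through a continuous range.

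Single fish overlapped between diets in every member. In 0 of the 200 did all 9 LP500 fish lie below every other fish (0% of the 18876 genes), and in 0 did all 9 lie below every CD fish (0.0371%). All 9 LP500 fish were below the median of the 36 other fish in 38 members, at least 8 were in 120, and the fewest was 4. The shares of the 18876 genes with such counts were not computed. The rule favours genes with low LP500 fish, so these counts only describe the members, here and for the single genes below. In 127 members the difference was smaller than the SD between fish of one diet. The fish numbers of each diet fall into 3 runs of 3 consecutive numbers, which may be the tanks although no source says so, and p-values over 9 fish take no account of shared tanks. The means of all 3 LP500 runs were below those of the 12 other runs in 58 members (2.01% of the 18876 genes). In 87 members 2 runs were below, in 44 a single run was, and in 11 none. The rule used these values, so that no test is given.

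**Figure D1:**
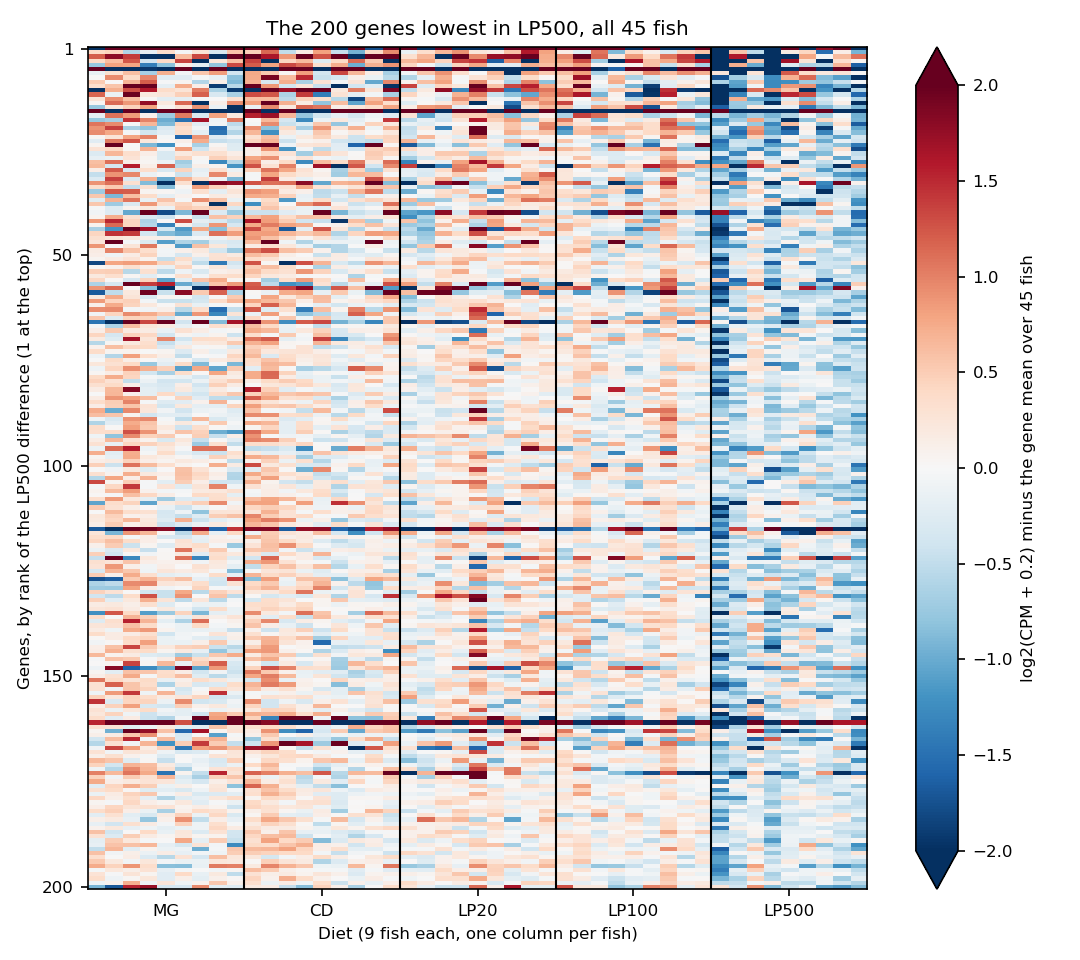
Heat map of the 200 genes (vertical axis, rank 1 at the top) in 45 fish (horizontal axis, 9 per diet), coloured by log2(CPM + 0.2) relative to the average of each gene. The LP500 columns are blue overall but differ in depth of colour, and a few genes alternate between dark red and dark blue in every diet.

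The LP500 fish, numbered 1 to 9 in the order of their labels, did not contribute equally. Averaged over the members, log2 CPM deviated from the mean of 45 fish by -1.08 in LP500 fish 1, by -0.76 in fish 4, by -0.69 in fish 9 and by -0.63 in fish 2. It deviated by -0.37 in fish 8, -0.34 in fish 7, -0.32 in fish 5, -0.18 in fish 6 and -0.10 in fish 3. The 36 other fish lay between -0.12 and 0.53, so 8 LP500 fish were below all of them and 1 lay within their range. The number of members below the lowest of the 4 other diet means was 93 to 184 per LP500 fish (median 163), against 27 to 127 in the other fish (median 77.5).

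Markers of connective tissue, vessels and muscle, and part of those of nerve, were higher in LP500 than in CD, measured on genes outside the set. In the tests of these lists given below, no difference of LP500 from LP20, LP100 or MG passed. Of the 7 fibroblast and matrix genes tested, 6 were up-regulated in LP500 against CD (edgeR quasi-likelihood test, adjusted p under 0.05, where 7.45% of 31729 genes were up-regulated), including *col1a1a* (log2 fold change 2.29, adjusted p = 0.0052) and *fn1a* (1.92, adjusted p = 0.0060). Their summed level was 79.8 to 1089 CPM in LP500 fish, against 96.9 to 634 CPM in MG, 66.7 to 344 CPM in CD, 76.5 to 693 CPM in LP20 and 71.3 to 570 CPM in LP100 fish, so the diets overlapped. All 6 endothelial genes were up-regulated, with sums of 6.88 to 44.8 CPM in LP500 fish, against 5.46 to 31.99 CPM in MG, 4.66 to 17.9 CPM in CD, 5.87 to 41.0 CPM in LP20 and 5.59 to 46.1 CPM in LP100 fish. The smooth muscle list had 3 of 4 up-regulated and the list of neurons and glia 3 of 6. Those 3 were scarce in CD, with *nos1* at 0.60, *vipb* at 0.74 and *stmn2b* at 1.59 CPM. The more abundant *elavl3* (log2 fold change 0.16), *gfra1a* (0.17) and *ret* (-0.17) were not called. None of the genes of these lists was at 0 in LP500 or CD.

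As mean log2 deviations per fish, the lists were higher in LP500 than in CD by 1.59 for fibroblasts and matrix (exact permutation test, two-sided, adjusted p = 0.022), 1.59 for endothelium (exact permutation test, adjusted p = 0.0099), 0.87 for smooth muscle (exact permutation test, adjusted p = 0.022) and 0.88 for neurons and glia (exact permutation test, adjusted p = 0.0099). The list of distal absorptive enterocytes was lower by 0.28 (exact permutation test, adjusted p = 0.037). All 10 of its genes were lower (50.1% of all tested genes) and 1 was called downward (3.21% of all tested genes). The call of the list was lost in 13 of 18 repeats that left out 1 LP500 or CD fish (difference of -0.19 without LP500 fish 1). Of the 40 tests of 10 lists against 4 diets, these 5 passed, and none against LP20, LP100 or MG did. LP500 exceeded LP100 by only 0.09 for fibroblasts and matrix, 0.27 for endothelium, 0.11 for smooth muscle and 0.17 for neurons and glia. For fibroblasts and matrix the difference was 0.43 against LP20 and 0.83 against MG, and for endothelium it was 0.46 and 0.86. A test that did not pass does not show equal levels. These lists thus did not set LP500 apart from LP100, and LP100 against CD was not tested on them.

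Within diets, the members were lower in fish in which the markers of connective tissue and of several other cell types were higher. The mean of the 200 members correlated with the fibroblast and matrix list at r = -0.52 (Spearman's rho = -0.47) over 45 fish after the diet means were removed, and at r = -0.39 without the 2 fish farthest from the median. Separately, r was -0.59 in LP500, -0.25 in MG, -0.55 in CD, -0.41 in LP20 and -0.90 in LP100, with 9 fish each. Over 45 fish, r was also negative for smooth muscle (-0.48), neurons and glia (-0.45), adipocytes (-0.43, rho = -0.51) and endothelium (-0.39). It was -0.37 for enteroendocrine cells (rho = -0.27, and r = -0.16 without the 2 farthest fish). It was -0.30 for macrophages and granulocytes, but 0.21 for the general enterocyte list and 0.02 for B and plasma cells. Not every diet showed the negative relation. In MG, r was only -0.06 for smooth muscle and -0.07 for neurons and glia. In LP20 it was -0.03 for endothelium and 0.49 for macrophages and granulocytes. For the distal absorptive enterocytes r was 0.31 (rho = 0.37), with 0.73 in LP500 but -0.56 in LP20, and without LP500 fish 1 the value over 44 fish was 0.10, against -0.48 for fibroblasts and matrix. LP500 fish 1, in which the members were lowest, was the highest LP500 fish for matrix markers (mean log2 deviation 1.76). LP500 fish 3, in which the members were least low, was the lowest for these markers (-1.56). LP500 fish 6 went the other way, with a high matrix value (1.14) but members only slightly low (-0.18). Within LP500, r for fibroblasts and matrix was -0.41 without fish 1 and -0.40 without fish 3. It was -0.74 without fish 6. The marker and member values of a fish come from the same library, these values are descriptions, and the part of tissue composition in the members' levels was not tested. Fewer cells of a type and less RNA per cell cannot be told apart in bulk samples.

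**Figure D2:**
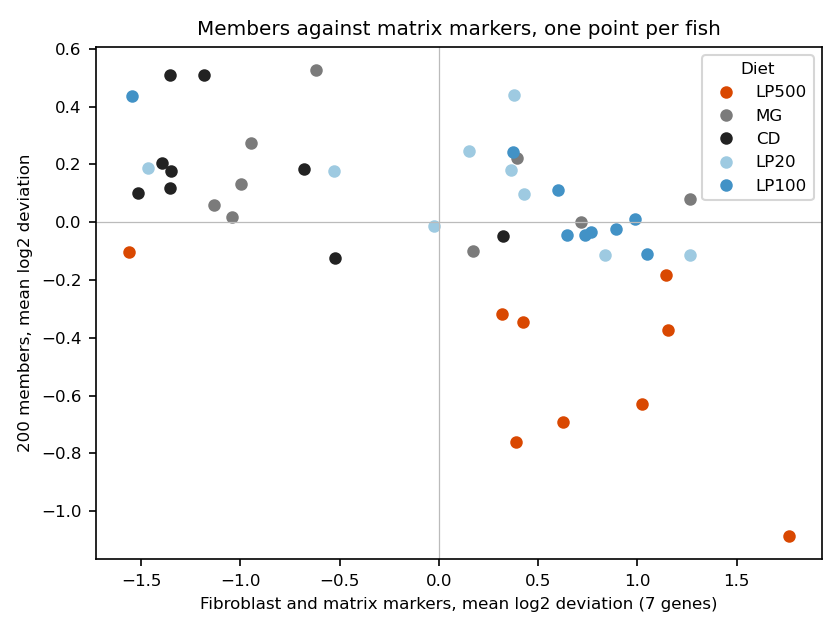
One point per fish, with the mean log2 deviation of the 7 fibroblast and matrix genes on the horizontal axis and that of the 200 members on the vertical axis, both relative to 45 fish and coloured by diet. The LP500 points run from the upper left (fish 3, at -1.56 and -0.10) to the lower right (fish 1, at 1.76 and -1.08). Fish 6 departs from this course, at 1.14 and -0.18.

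The members varied more between fish of one diet than the expressed genes at large. Their within-diet SD of log2 CPM had a median of 0.482 (quartiles 0.367 and 0.695), against 0.231 (0.179 and 0.316) over the 18876 genes. It was above 1 in 28 members (14%), against 1.58% of all. The mean CPM had a median of 14.2 in members and 17.5 in all genes, and the exon length 4436 and 4076 bases. The mean correlation between pairs of members within diets was 0.169, against 0.0157 between pairs of the 18876 genes. A rule that takes the largest differences of means favours genes that vary widely, so these values describe the set without a test.

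**Figure D3:**
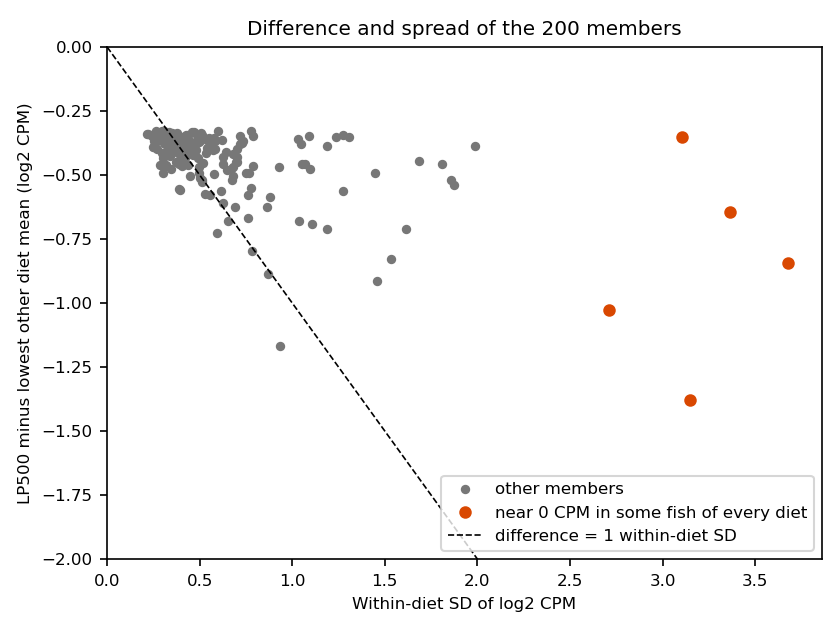
The 200 members by the SD of log2 CPM between fish of one diet (horizontal axis) and the LP500 mean minus the lowest other diet mean (vertical axis, log2 CPM). The dashed line marks a difference of 1 within-diet SD: 127 members lie above it, and the 5 orange members are those near 0 CPM in some fish of every diet.

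The most variable members were close to 0 in some fish of every diet and well expressed in the others. With at least 5 fish below 1 CPM, at least 5 above 5 CPM and at most 4 between, 5 members had this pattern (2.5%, against 0.17% of the 18876 genes). These limits and genes were chosen after the values were seen. ENSSSAG00000090080 on chromosome 7, rank 1, was below 1 CPM in 6 of 9 LP500 fish, against 1 in MG, 3 in CD, 4 in LP20 and 3 in LP100. In the fish above 5 CPM its median was similar in each diet, at 19.8 CPM in LP500, against 20.4 in MG, 18.5 in CD, 20.9 in LP20 and 23.5 in LP100. Its difference of -1.38 thus followed the number of fish near 0 and not the level in the others.

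ENSSSAG00000118334 on chromosome 27 was below 1 CPM in 7 LP500 fish, against 6 in MG, 5 in CD, 5 in LP20 and 3 in LP100, and lay at 19.1 CPM or above in all 19 other fish. ENSSSAG00000054313 on chromosome 17 was below 1 CPM in 6 LP500 fish, against 5 in MG, 4 in CD, 3 in LP20 and 5 in LP100. ENSSSAG00000087861 was below 1 CPM in 4 LP500 fish, against 3 in MG and 1 each in CD, LP20 and LP100. In its fish above 5 CPM the level differed as well, with a median of 10.2 CPM in LP500, against 15.5 in MG, 26.2 in CD, 15.98 in LP20 and 12.1 in LP100. ENSSSAG00000042126 was below 1 CPM in 4 LP500 fish, against 2 in MG, 4 in CD, 4 in LP20 and 3 in LP100, and its difference of -0.35 turned positive, to between 0.03 and 0.14, when LP500 fish 1, 2, 4 or 6 was left out. Its median in the fish above 5 CPM was 18.5 CPM in LP500, against 37.4 in MG, 32.1 in CD, 18.9 in LP20 and 25.95 in LP100. The last 2 lie on unplaced scaffolds, where no match to a RefSeq gene was possible, and the others matched none.

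**Figure D4:**
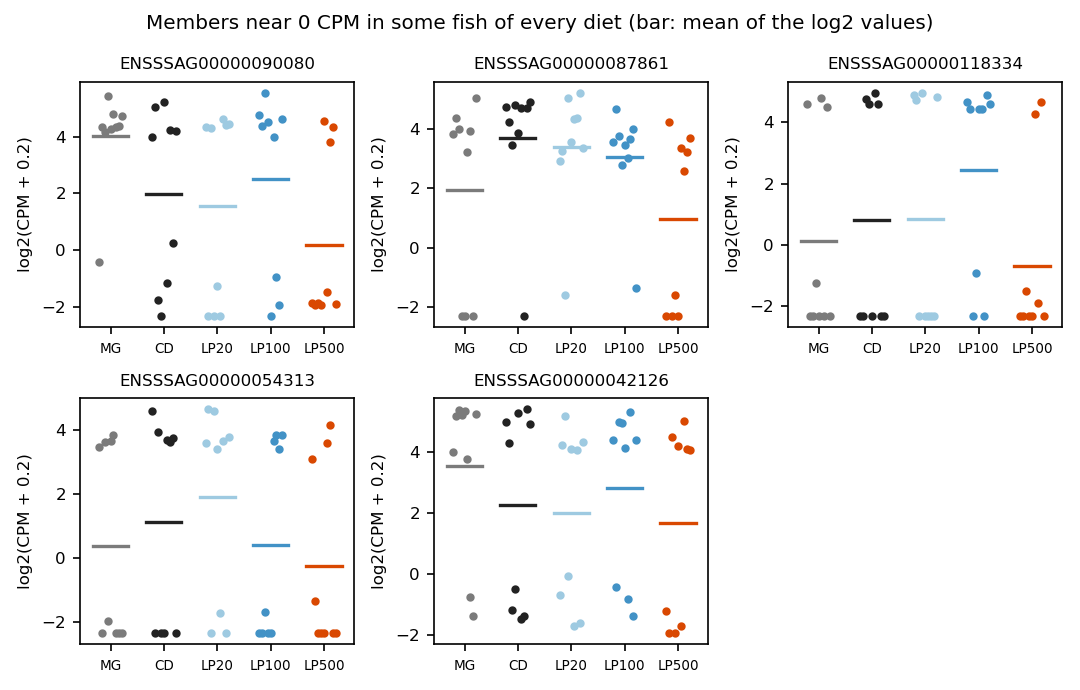
Expression as log2(CPM + 0.2) in each fish (points) and the mean of these values (bars) for the 5 members near 0 CPM in some fish of every diet. The points form separate low and high groups in all 5 diets. For ENSSSAG00000090080 the low group holds 6 of 9 LP500 fish, against 1 to 4 in the other diets, while for ENSSSAG00000042126 it holds 4 in LP500, CD and LP20 alike.

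ENSSSAG00000104092, rank 2 and chosen after its values were seen, showed another pattern. It lies on an unplaced scaffold and had 0.397 to 12.5 CPM in LP500 fish (median 5.88), against 4.33 to 25.8 CPM (median 10.8) in the 36 others. It averaged 6.30 ± 4.6 CPM in LP500, against 9.42 ± 2.48 in MG, 11.04 ± 5.08 in CD, 13.4 ± 5.37 in LP20 and 10.04 ± 3.93 in LP100 (SD, n = 9 each). The level was graded among fish and all 3 LP500 runs were below the 12 others.

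Many members lacked a symbol. A RefSeq gene matched 126 of the 200 (63%, against 78.0% of the 18876 genes), of which 34 had a proper symbol (17%, against 27.2%), and 92 had a LOC number. Unplaced scaffolds held 24 members (12%, against 1.81%). Only RefSeq genes on chromosomes were used, so these 24 could not match. Part of the lower share of matches follows from their position. The coordinates below are of assembly Ssal_v3.1. The symbols come from overlap in position on either strand, so where genes overlap a symbol may belong to the gene on the other strand. The role of each gene is that known from mammals or fish.

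Transcription factors among the members were *roraa*, *rorca*, *foxo4* and *zbtb7a*. The first of these, *roraa* (chromosome 10: 90529497-90832290), encodes a ROR nuclear receptor, a family that activates clock genes and, in mammals, shapes lymphocyte types. It had 3.21 to 10.7 CPM in LP500 fish (median 7.72), against 3.93 to 16.8 CPM (median 11.1) in the 36 others. The means were 7.08 ± 2.47 CPM in LP500, against 10.7 ± 3.25 in MG, 12.6 ± 2.70 in CD, 10.4 ± 3.52 in LP20 and 9.90 ± 3.54 in LP100. All 9 LP500 fish were below the median of the others, although 45.3% of its exonic bases are also exonic for a gene on the opposite strand.

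Its relative *rorca*, whose mammalian counterpart directs interleukin-17-producing lymphocytes, had 9.45 to 22.8 CPM in LP500 fish (median 15.8), against 13.2 to 29.2 CPM (median 21.4) in the others. It averaged 16.6 ± 4.27 CPM in LP500, against 21.9 ± 3.49 in MG, 20.7 ± 4.35 in CD, 22.01 ± 3.79 in LP20 and 21.4 ± 4.31 in LP100, so the 4 other diets lay within 1 SD of each other. Within diets the 2 receptors were correlated over the 45 fish (r = 0.52, permutation test, adjusted p = 0.00044, and rho = 0.57). Without the 2 fish farthest from the median, r was 0.55. The p-value is against no correlation, whereas pairs of members averaged 0.169 within diets. The members were selected on the LP500 fish among these 45, so the correlation is a description.

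The forkhead factor *foxo4*, which insulin signalling keeps out of the nucleus, averaged 4.01 ± 1.40 CPM in LP500, against 5.35 ± 1.49 in MG, 6.03 ± 0.97 in CD, 5.13 ± 1.63 in LP20 and 5.21 ± 0.95 in LP100. Its span matched the RefSeq gene only in part, at 0.55 of the joint span, and 30.2% of its exonic bases overlap exons of the opposite strand. The zinc finger repressor *zbtb7a* had 7.31 to 43.5 CPM in LP500 fish (median 29.1), against 20.004 to 64.5 CPM (median 36.6) in the others. Its difference was -0.39, and CD was the highest diet at 42.7 ± 9.71 CPM.

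Proteins of endosomes, vesicles and membrane lipids formed another group. The endosomal sorting factor *ankrd27* had 37.4 to 87.3 CPM in LP500 fish (median 59.6), against 40.4 to 118 CPM (median 79.7) in the others, and averaged 56.7 ± 15.7 CPM in LP500, against 75.9 ± 19.8 in MG, 74.4 ± 17.0 in CD, 77.3 ± 21.5 in LP20 and 79.8 ± 20.4 in LP100. The phosphatidylinositol 4-phosphate phosphatase *sacm1la* averaged 60.8 ± 16.4 CPM in LP500, against 79.02 ± 14.5 in MG, 84.97 ± 17.2 in CD, 79.2 ± 15.4 in LP20 and 77.8 ± 15.5 in LP100. In both genes 8 LP500 fish were below the median of the others, and for *sacm1la* all 3 LP500 runs were below the 12 others.

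The Rab27-binding protein *sytl5* averaged 8.17 ± 3.13 CPM in LP500, against 12.02 ± 3.14 in MG, 13.9 ± 2.87 in CD, 11.5 ± 2.78 in LP20 and 10.5 ± 3.20 in LP100. The gene *hps6*, a subunit of a complex for lysosome-related organelles, had 1.35 to 6.57 CPM in LP500 fish (median 4.47), against 3.99 to 8.97 CPM (median 5.61) in the others. In both, the lowest value of the 45 fish was that of LP500 fish 1.

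Of the interferon-induced genes, *mx2* encodes an antiviral GTPase and *helz2a* a helicase that coactivates nuclear receptors in mammals. The helicase gene had 28.4 to 54.0 CPM in LP500 fish (median 35.0), against 31.2 to 142 CPM (median 55.8) in the others, and all 9 LP500 fish were below that median. It averaged 37.97 ± 9.29 CPM in LP500, against 72.3 ± 32.1 in MG, 56.1 ± 10.97 in CD, 70.4 ± 27.7 in LP20 and 49.7 ± 10.1 in LP100. MG and LP20 held the fish with the highest levels. For *mx2* the means were 4.10 ± 1.72 CPM in LP500, against 9.33 ± 4.55 in MG, 5.74 ± 3.17 in CD, 8.38 ± 5.78 in LP20 and 5.81 ± 2.73 in LP100, so that CD and LP100 were close to LP500 and within 1 SD. Against CD, neither gene passed the test in MG (*mx2* log2 fold change 0.71, adjusted p = 0.67, and *helz2a* 0.37, adjusted p = 0.72, edgeR). Within diets their levels were correlated (r = 0.61, permutation test, adjusted p = 2.6e-05, and rho = 0.60). This p-value too is against no correlation and not against the mean of 0.169 for pairs of members.

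Of 11 further genes of an interferon list, 0 were called up (7.45% of all tested genes) or down (3.21%) in LP500 against CD in edgeR. An unadjusted p under 0.05 was found in 4, beside 14% of all tested genes upward and 10.9% downward. Of the 11, 8 were lower (50.1% of all tested genes), and the median log2 fold change was -0.08. Of the 4 with an unadjusted p under 0.05, *ifit8* (log2 fold change -0.74, edgeR adjusted p = 0.055) and *irf3* (-0.23, adjusted p = 0.18) were lower. In contrast, *irf9* (0.15, adjusted p = 0.12) and *ifi44* (0.57, adjusted p = 0.15) were higher, while *stat1a* (-0.01) lay near 0. Of 11 further genes of a circadian list, 0 were called, 1 had an unadjusted p under 0.05 and the median was -0.01, beside the same shares of all tested genes. These were the only 2 of the 40 lists that held a member. The other 38 lists, among them those of the brush border, lysosome, sterol synthesis and junctions, held none. Genes were placed on the lists by symbol. Only 34 members had a symbol other than a LOC number (17%, against 27.2% of the genes of at least 5 CPM). The remaining members could not fall on any list, so the empty lists are no result about those cell types and pathways.

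Ubiquitin ligase genes were *klhl24a*, a kelch-type adaptor of cullin-3 ligases, and *rnf26*, a ligase of the endoplasmic reticulum. The adaptor gene had the most negative difference of the genes with a symbol (-0.80), with 1.61 to 20.5 CPM in LP500 fish (median 4.96), against 5.15 to 35.1 CPM (median 9.22) in the others. Among the LP500 fish, 7 were below that median and 2 were high. In contrast, *rnf26* was steady, with a within-diet SD of 0.27, and averaged 4.03 ± 0.76 CPM in LP500, against 5.82 ± 0.96 in MG, 5.38 ± 1.19 in CD, 6.35 ± 0.99 in LP20 and 6.02 ± 1.09 in LP100. All 9 LP500 fish were below the median of the others and all 3 runs were below the 12 others.

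**Figure D5:**
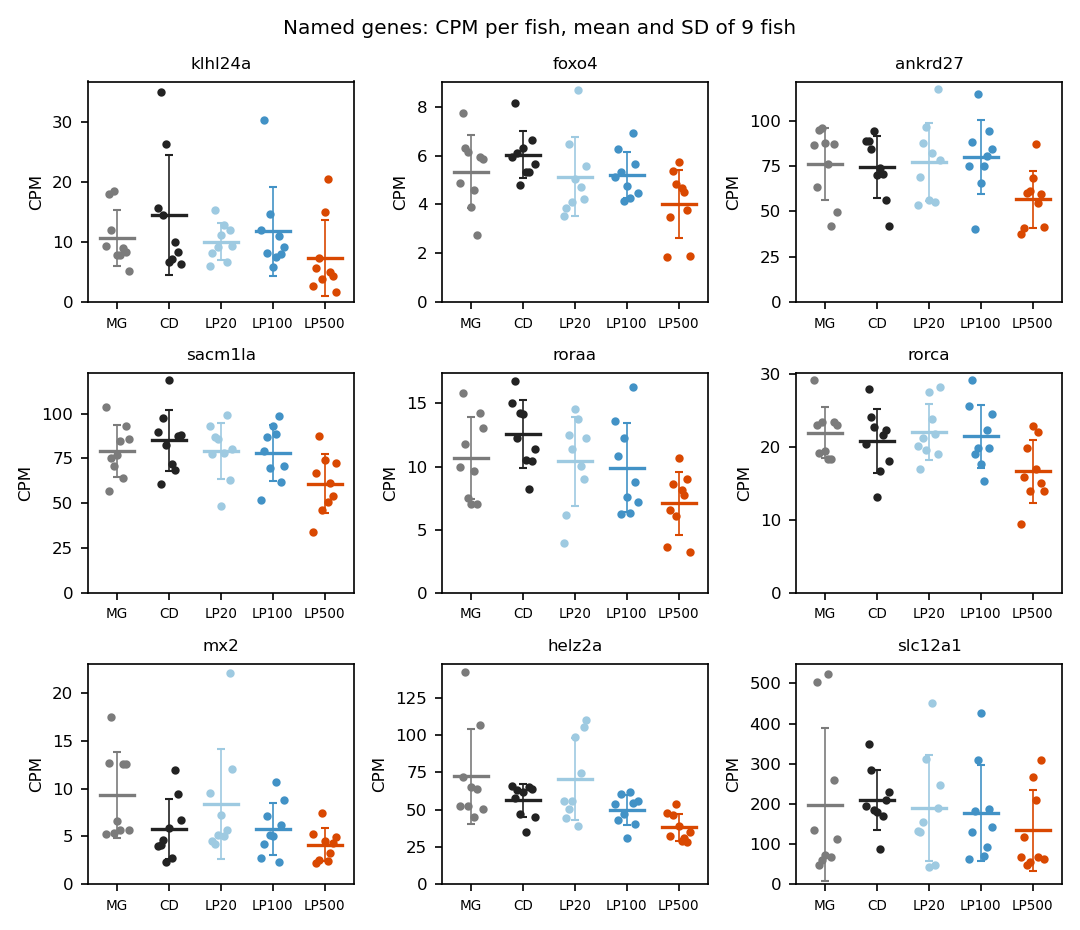
CPM of 9 members in each fish (points), with the mean (horizontal bar) and SD (error bar) of 9 fish per diet. The LP500 mean is the lowest in each panel while single LP500 fish overlap with the other diets, as for *ankrd27* (37.4 to 87.3 CPM in LP500, against 40.4 to 118 CPM in the others), and *slc12a1* is widely spread in every diet.

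Among genes of ion transport and the cell surface, the sodium-potassium-chloride cotransporter *slc12a1* had 47.4 to 310 CPM in LP500 fish (median 67.9), against 41.6 to 524 CPM (median 174) in the others, with a within-diet SD of 1.03, against a difference of -0.36. The sodium channel beta subunit *scn4ba* averaged 15.9 ± 5.24 CPM in LP500, against 23.3 ± 6.80 in MG, 23.9 ± 6.59 in CD, 23.5 ± 5.57 in LP20 and 20.9 ± 6.14 in LP100. The inhibitor of Fas-mediated death *faim2a* averaged 5.50 ± 2.63 CPM in LP500, against 7.35 ± 2.09 in MG, 7.29 ± 1.54 in CD, 6.59 ± 2.07 in LP20 and 7.03 ± 2.14 in LP100. The membrane metalloprotease *adam28* averaged 12.04 ± 4.71 CPM in LP500 and between 15.95 and 19.01 CPM in the 4 other diets, and all 3 LP500 runs were below the 12 others. The adaptor *garem*, which links growth factor receptors to the MAP kinase pathway, averaged 4.85 ± 1.08 CPM in LP500 and between 6.25 and 6.97 CPM in the others, with 38% of its exonic bases overlapping exons of the opposite strand.

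Among the enzymes, the carotenoid oxygenase-like gene *bco1l* had 29.0 to 94.1 CPM in LP500 fish (median 34.9), against 36.5 to 235 CPM (median 56.1) in the others. LP20 was the highest diet at 82.4 ± 58.4 CPM, and its spread covered the LP500 mean of 44.4 ± 20.4 CPM. The purine nucleoside phosphorylase *pnp4b* averaged 23.5 ± 9.17 CPM in LP500, against 35.9 ± 14.8 in MG, 34.5 ± 17.1 in CD, 33.1 ± 16.0 in LP20 and 31.2 ± 10.7 in LP100, but 87.9% of its exonic bases overlap exons of the opposite strand. The sialyltransferase *st6galnac* averaged 16.2 ± 5.75 CPM in LP500, against 20.6 ± 3.18 in MG, 20.4 ± 2.74 in CD, 20.5 ± 3.53 in LP20 and 19.9 ± 3.40 in LP100. The gene *nampt2*, of the enzyme that recycles nicotinamide to NAD, averaged 19.4 ± 3.76 CPM in LP500, against 27.5 ± 6.05 in MG, 24.98 ± 4.24 in CD, 26.9 ± 4.40 in LP20 and 24.4 ± 4.75 in LP100, and 8 LP500 fish were below the median of the others.

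Of the other genes with a symbol by the same order, *fam151a* and *lrrc53* (differences of -0.58 and -0.55) lie together on chromosome 3. The uncharacterised *zgc:153031*, *si:dkey-28n18.9*, *wu:fb13g09* and *si:dkey-225n22.4* had differences of -0.37 to -0.38. The last had the narrowest LP500 range of these, 4.76 to 8.10 CPM, against 3.46 to 26.04 CPM in the 36 others. The remaining 7 genes with a symbol, named after their values were seen, had differences of -0.33 to -0.35. In *prp12* all 9 LP500 fish were below the median of the others, with 19.8 ± 3.49 CPM in LP500, against 27.2 ± 4.11 in MG, 26.02 ± 4.33 in CD, 24.9 ± 2.50 in LP20 and 25.4 ± 3.85 in LP100. The same count held for *arrd3* (65.3 ± 12.2 CPM in LP500 and 82.5 to 94.7 CPM in the other diets) and for the aspartoacylase *aspa* (7.55 ± 1.44 CPM and 9.65 to 10.7 CPM). The ephrin receptor *epha5*, the lysophosphatidic acid receptor *lpar2a*, the pyruvate dehydrogenase kinase *pdk3* and *tlcd2* were below that median in 7 or 8 LP500 fish.

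Per exon length, the most abundant member was LOC106577505 (ENSSSAG00000119332, chromosome 2: 24257340-24258911), with 836 to 2020 CPM in LP500 fish (median 1316), against 1041 to 3717 CPM (median 1722) in the others. ENSSSAG00000086296 overlaps it on the opposite strand and varied with it (r = 0.98). ENSSSAG00000105525, on an unplaced scaffold, averaged 535 ± 226 CPM in LP500 and between 673 and 746 CPM in the other diets, and LOC106600514 averaged 382 ± 161 CPM in LP500 and between 494 and 564 CPM in the others. ENSSSAG00000051653 was within its spread, at 499 ± 290 CPM in LP500 and between 554 and 613 CPM in the others. Only 4 of its LP500 fish were below the median of the other fish, and the LP500 median (545 CPM) was above it (516 CPM).

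Several members lay side by side. Of the 200, 30 were within 100 kb of another member, in 19 pairs, of which 8 overlapped on opposite strands. How many of 200 other genes would lie as close was not computed, so these counts are a description and no result about the members. Within diets the overlapping pairs were correlated at r = 0.75 to 0.98 and all 19 at -0.08 to 0.98 (median 0.75). The adjusted p was under 0.05 in 18 of 19 (permutation within diets, over 21 relations, smallest possible p of 1e-05). These tests too are against no correlation, whereas pairs of members averaged 0.169, and neighbouring genes outside the set were not examined. On chromosome 3, *fam151a*, *lrrc53*, ENSSSAG00000047944 and ENSSSAG00000115536 lay within that distance of each other, and *fam151a* and ENSSSAG00000047944, which overlap, were correlated at r = 0.91. The overlapping partner of *pnp4b*, ENSSSAG00000087503, was correlated with it at r = 0.98. Fragments were assigned by strand, so a fragment was not counted for both genes of an overlapping pair. How well the libraries kept the strands apart was not tested, so such pairs are not taken as independent members.

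The contrasts between the other 4 diets were not used as such by the rule. In 5 of these 6 contrasts no gene at all passed in the edgeR fit used here, so that the absence of members there is no result about the members. With DESeq2, 182 genes (0.5%) and 0 members passed in LP20 against CD. The paper, with another tool, reported differentially expressed genes in LP20 and in MG against CD. In LP20 against CD, 0 of 200 passed in edgeR (0% of 31729 genes), with an unadjusted p under 0.05 in 8 members upward (4%, against 8.75% of all genes) and 2 downward (1%, against 4.13%). In MG against CD, 0 passed (0%), with 2 upward (1%, against 5.42%) and 0 downward (0%, against 1.71%) at that limit. In LP100 against CD, 0 members passed upward, against 3.6% of all genes, and 1 passed downward, against 0.473%, with 0 upward (0%, against 11.8%) and 10 downward (5%, against 6.72%) at an unadjusted p under 0.05. These shares of all genes moved with single fish and with the unit of replication, as 1292 genes passed in all in LP100 against CD, but 0 without CD fish 3, 77 without CD fish 8, 2417 without LP100 fish 7 and 15 on counts summed per run. Among LP100 against LP20, LP20 against MG and LP100 against MG, 0 members and 0% of all genes passed. At an unadjusted p under 0.05, 11 members were lower in LP100 than in LP20 (5.5%, against 3.57% of all genes) and 11 lower in LP100 than in MG (5.5%, against 3.68%), with 0 higher in either, and in LP20 against MG 1 member lay in each direction. The rule takes the lowest of these 4 means as its reference, so the values are not fully independent of it.

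Median log2 fold changes of the members were -0.04 in LP20, -0.10 in LP100 and -0.02 in MG, each against CD, beside -0.03, -0.05 and -0.02 over all genes of at least 5 CPM. These 3 contrasts share the CD fish. Downward signs were found for 140 members in LP100 (63.5% of the genes of at least 5 CPM), 117 in LP20 (59.2%) and 107 in MG (55.7%). The rule itself selects on LP500 against CD, where 64 members passed downward (3.21% of all genes) and 0 upward, and on LP500 against LP20, LP100 and MG, where 0 passed (0% of all genes each) and 130, 103 and 140 had an unadjusted p under 0.05 downward (7.14%, 4.96% and 6.42% of all genes). Nothing is read from these counts.

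The member called in LP100 was ENSSSAG00000093038 on an unplaced scaffold (log2 fold change -2.15 ± 0.58 SE, edgeR adjusted p = 0.031). It averaged 2.17 ± 1.03 CPM in LP100 and 9.65 ± 10.7 CPM in CD, with 3 CD fish at 21.5 to 27.9 CPM and the other 6 at 1.09 to 4.47 CPM, a range that overlaps that of the LP100 fish (1.06 to 4.15 CPM). In LP500 it averaged 1.81 ± 1.04 CPM, against 6.98 ± 7.49 in MG and 4.90 ± 4.28 in LP20, so LP100 and LP500 were within 1 SD. Leaving out 1 LP100 or CD fish at a time gave between 0 and 5 called members, with 0 after LP100 fish 3, 4 or 8 or CD fish 3, 4, 5 or 8 was left out and 5 without LP100 fish 7. Without CD fish 6, the 1 member called was ENSSSAG00000001848, and the call of ENSSSAG00000093038 was lost there as well. On counts summed per run, the possible tanks, the call of ENSSSAG00000093038 was lost and 0 members passed. With all fish kept, the next in edgeR were ENSSSAG00000090442 (log2 fold change -1.12, adjusted p = 0.062), ENSSSAG00000001848 (-0.88, adjusted p = 0.074) and *epha5* (-0.74, adjusted p = 0.11), none of which passed.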

How the data were processed

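Distal intestine RNA of 45 fish was sequenced as read pairs. The authors aligned them to the genome (assembly Ssal_v3.1) and used featureCounts v1.5.1 at strand setting 2 to assign fragments to Ensembl genes. The deposited values are raw counts without normalization, 1 table of 69389 genes per fish. Counts were scaled to CPM with TMM factors and logged with a prior count of 2. No fish was left out. Genes were named after the protein-coding RefSeq gene on a chromosome that shared at least 0.5 of the joint span (30322 matched), without regard to strand.

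Contrasts were tested with the quasi-likelihood test in R v4.3.3 with edgeR v4.0.16, fitted to all 45 fish with diet as the factor, after filterByExpr (31729 genes, all 200 members kept), with Benjamini-Hochberg adjustment at 0.05 over all tested genes. On simulated counts for LP100 against CD (31478 genes), 75% of genes changed by a log2 fold of 1 and 97% of those changed by 2 were recovered, with 11 calls on unchanged genes. Those counts were drawn independently for each gene and fish, without tank effects. The rates therefore do not describe the real contrast, where calls moved with single fish. DESeq2 v1.42.0 was an alternative. Marker lists were compared as mean log2 deviations over all 48620 splits of 9 against 9 fish. Correlations used 100000 permutations within diets. The genes named were the 25 with a symbol and the most negative difference, the 3 nearest the limit on each side, members on a list or called between other diets, and the 5 most abundant per exon length. Members, lists and rules were chosen with earlier results of these data known.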

Additional observations from a re-analysis of the deposited data

Results flagged for a closer look

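Among the 9 LP500 fish, a single fish stood apart in 5 of 49 sets of values examined, which were the log2 CPM of the named members and the mean over all members. LP500 fish 1 was the lowest in 4 of them. It had 2.62 CPM of *sytl5* (next lowest LP500 fish 5.97), 7.31 CPM of *zbtb7a* (next 20.2), 1.35 CPM of *hps6* (next 3.17) and 2.70 CPM of *tlcd2* (next 12.9). LP500 fish 4 had 40.1 CPM of *arrd3* (next 59.4). For unselected and independent sets, about 1 in 20 would be marked without any outlying fish. The members were chosen by their low LP500 values and the sets share the same fish, so that rate does not hold here.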

How the results depend on the processing

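Membership depended on the rule's settings more than on the scaling. Of the 200 members, 80 were shared with a minimum of 1 CPM, 41 without a minimum and 94 with diet medians, and 118, 126 and 135 without LP500 run 1, 2 and 3. Between 144 (without LP500 fish 1) and 171 were shared when 1 LP500 fish was left out, and 175 to 200 under other priors and scalings. With diet medians, 190 members were still lowest in LP500. With medians, the difference of ENSSSAG00000090080 was -6.18 in place of -1.38. The difference changed sign in 3 of the genes named. ENSSSAG00000093038 was at 0.075 with medians and 0.027 without run 1, and ENSSSAG00000051653 at 0.12 with medians and 0.055 without run 2. ENSSSAG00000042126 was at 0.00683 with medians, 0.29 without run 1, 0.43 without run 2 and 0.029 to 0.14 without LP500 fish 1, 2, 4 or 6, and it ranged from -0.77 to 0.14 when any 1 LP500 fish was left out. The cause was not tested.

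In LP100 against CD, 3 members were called by DESeq2 (5.37% of all genes tested), 2 by edgeR on 36 fish (5.36%) and 0 on counts summed per run (0.041%). When 1 fish was left out, 0 to 5 members were called, beside 0% to 7.56% of all genes tested. The number of members called is thus no result about the members. In LP20 and MG against CD, 0 members were called under each of the 5 alternatives run, where at most 0.5% of all genes tested passed. None of these alternatives left out a fish of LP20, MG or CD, and the edgeR fit on 36 fish lacked all LP500 fish. Without 1 LP500 or CD fish, the marker differences were -0.33 to -0.19 for distal absorptive enterocytes (adjusted p of the exact permutation tests up to 0.093) and 0.72 to 0.99 for smooth muscle (up to 0.051, with 16 of 18 still called). The other 3 lists passed in all 18 repeats. Each repeat left out a single fish, so shared tanks were not taken into account. These repeats were chosen after seeing the data. No paired analysis was possible because the fish of different diets share no numbers in the labels. Counting error at 5 CPM, 9.45% to 14.4%, is below the within-diet spread of most members.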
